A study of Mus musculus with 21 samples.

Results

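Neat1, Malat1, Meg3, Miat, Rian, Mirg and Snhg11 are 7 long noncoding RNAs (lncRNAs) of the mouse brain, and they were taken by symbol from the 48474 genes and gene copies of the count table. All 7 were measured in the neocortex of 21 mice by bulk mRNA sequencing, and all 7 passed the filter on low counts, as did 18248 genes in all. The comparison asked how their levels differed between rNLS8 mice and WT littermates. Total counts per mouse were between 20700912 and 22263809, so that 3 counts corresponded to at most 0.145 CPM, which are counts scaled to the library total.

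The 10 rNLS8 mice, labelled TG, carry a tTA driver under the NEFH promoter, which is active almost only in neurons, and a tetO transgene for human TDP-43 without its nuclear localization signal (hTDP-43ΔNLS). The 11 WT mice were monogenic littermates, which lack the combination of driver and transgene. All mice of both genotypes had received a non-targeting control antisense oligonucleotide (ASO, 350 µg in 10 µL) into a cerebral ventricle at 17 to 19 weeks of age. Doxycycline, which silences the transgene, was given in the diet at 200 mg/kg until 2 weeks after the injection, and the tissue was taken 3 weeks after its removal. The mice came from independent cohorts, A with 4 WT and 3 rNLS8 mice and B with 7 WT and 7 rNLS8 mice. The labels name the tissue as neocortex, whereas the study's methods name brain cortex and a figure legend names hippocampus for mice of these group sizes. The labels do not give the sex of the mice.

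Neat1 is the architectural RNA of paraspeckles, nuclear bodies that form around it, and Malat1 is an abundant RNA of nuclear speckles, where splicing factors are stored. Meg3, Rian and Mirg are transcribed from the maternal chromosome of the imprinted Dlk1-Dio3 region, Miat is a nuclear RNA of neurons, and Snhg11 is a neuronal RNA that hosts small nucleolar RNAs (snoRNAs). TDP-43 is an RNA-binding protein that prefers runs of alternating U and G, and Neat1 and Malat1 are among the RNAs it is known to bind.

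The longest run of alternating G and T in the longest GENCODE M21 transcript of each gene is shown because it is the sequence type TDP-43 prefers. Each line gives 30 bases of the transcript strand, 5′ to 3′, as DNA letters, with the run in capitals.
Neat1: gaGTGTGTGTGTGTGTGTGTGTGTGTGgtg
Malat1: tatagattgtaGTGTGTGgttctcttttga
Meg3: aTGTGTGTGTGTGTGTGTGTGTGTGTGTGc
Miat: tgGTGTGTGTGTGTGTGTGTGTGTGTGcat
Rian: tgaagacacacTGTGTGTaggagtctgagg
Mirg: caaagttctcaGTGTGTGTagccctttgaa
Snhg11: tgctaggactccTGTGTGgcgccttgcttt
In GRCm38, these windows lie at chr19:5826024-5826053 (minus strand) for Neat1, chr19:5799696-5799725 (minus) for Malat1, chr12:109565124-109565153 (plus) for Meg3 and chr5:112213721-112213750 (minus) for Miat. Those of Rian, Mirg and Snhg11 lie at chr12:109652289-109652318, chr12:109749402-109749431 and chr2:158376142-158376171, all on the plus strand and, like the others, in exons of the transcript read.

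The runs were 28 bases long in Meg3, 25 in Neat1 and in Miat, 8 in Mirg, 7 in Malat1 and in Rian, and 6 in Snhg11, where the median over 40427 genes with a transcript of at least 500 bases was 6. The motif GTGTGT, searched on the transcript strand with overlapping matches counted separately, occurred 37 times in Neat1 (1.78 per kb), 48 times in Meg3 (3.30 per kb), 29 times in Miat (3.16 per kb) and 4 times in Mirg (1.05 per kb). It occurred 2 times each in Malat1 (0.286 per kb) and Rian (0.247 per kb) and was not found in Snhg11. Of all these genes 49.7% hold the motif, and of 14184 long noncoding genes 50.9% do, with a median of 0.221 per kb. A match of letters is a description of the sequence and no measurement of binding.

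Neat1 was higher in rNLS8 mice. It had 277, 1106 and 1882 normalized counts in the lowest, median and highest WT mouse, and 1234, 1745 and 4917 in the rNLS8 mice. The groups overlapped, but all 10 rNLS8 mice lay above the WT median, 4 of 10 lay above every WT mouse and 8 of 11 WT mice lay below every rNLS8 mouse. The means were 1028 ± 439 (SD, n = 11) and 2117 ± 1089 (SD, n = 10), and the log2 fold change was 1.04 with a standard error of 0.25 (95% interval 0.52 to 1.57, edgeR quasi-likelihood test with cohort as covariate, adjusted p = 0.00168). This corresponds to 2.06-fold.

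Rian, the RNA that hosts C/D box snoRNAs and several microRNAs of the Dlk1-Dio3 region, was higher as well, by a smaller step. Its lowest, median and highest levels were 3006, 3977 and 4858 normalized counts in WT and 3609, 5419 and 6420 in rNLS8 mice. Here 6 of 10 rNLS8 mice lay above every WT mouse and 9 of 10 above the WT median, while T61340 of cohort A was the lowest rNLS8 mouse. The log2 fold change was 0.37 with a standard error of 0.087 (edgeR, adjusted p = 0.00128), or 1.29-fold. The count table holds a further copy of Rian that took between 100.9% and 165.3% as many counts as Rian itself, and how reads were shared between these copies is not given in the sources used here. For the further copy the log2 fold change was 0.32 (edgeR, adjusted p = 0.00978).

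Rian and Neat1 were thus the 2 of 7 lncRNAs that passed the test as higher, and 0 of 7 passed as lower. Over all genes tested, 44.7% passed in either direction, 23.0% as higher and 21.7% as lower, so a share of 2 in 7 is not set apart from the background. The TMM factors, by which the counts were scaled, were 0.962 to 0.999 in WT and 1.002 to 1.065 in rNLS8 mice and so separated the genotypes. Without them, with library size only, Neat1 had a log2 fold change of 1.13 and Rian of 0.44, both somewhat higher.

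**Figure D1:**
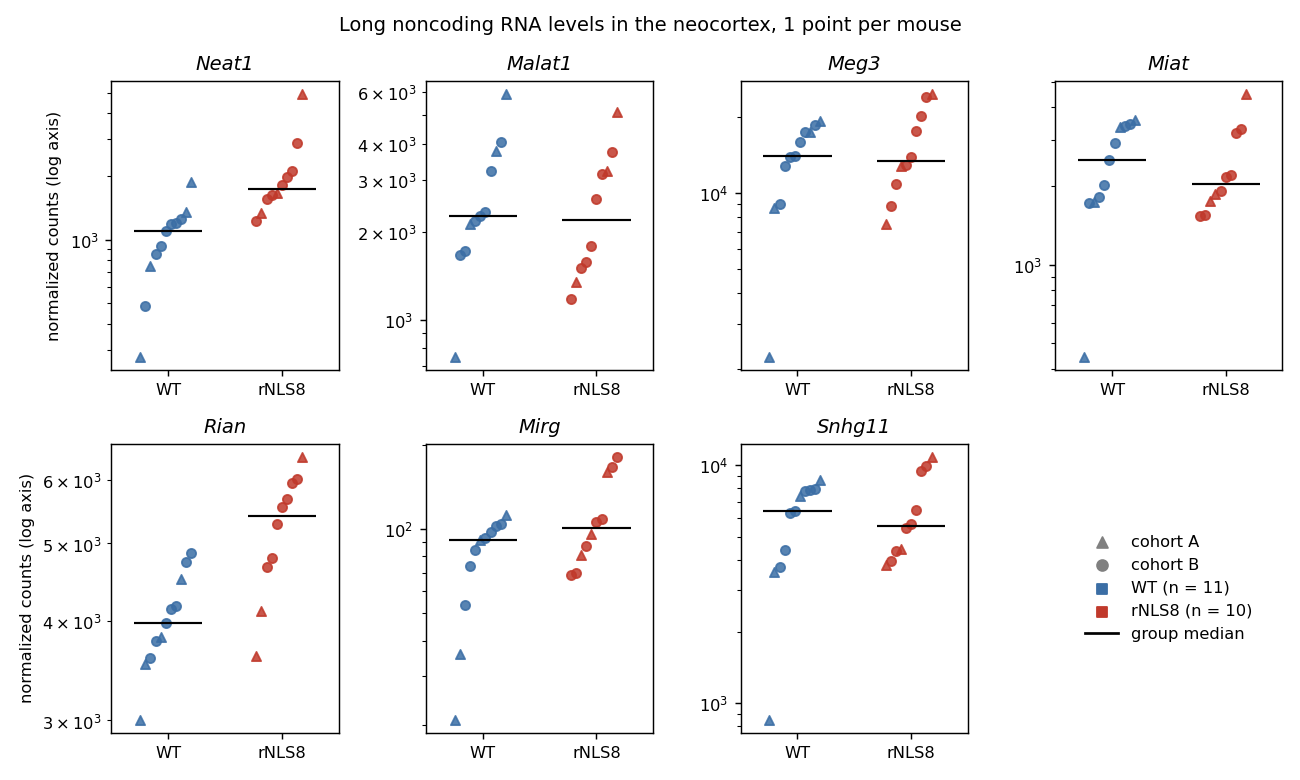
Normalized counts of the 7 lncRNAs (log axis) in each of 11 WT and 10 rNLS8 mice, with triangles for cohort A, circles for cohort B and lines for group medians. Neat1 medians are 1106 and 1745 and Rian medians 3977 and 5419, whereas the medians of Meg3, Miat and Snhg11 are slightly lower in rNLS8 mice and those of Malat1 are close. T61334 is the lowest point of every panel.

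Mirg, the host transcript of a large microRNA cluster, did not pass. It was the scarcest of the lncRNAs, with 20 to 185 raw counts per mouse, and had 20.9, 91.4 and 112 normalized counts in the lowest, median and highest WT mouse and 68.8, 101 and 181 in rNLS8 mice. The groups overlapped between 68.8 and 112, and 3 of 10 rNLS8 mice lay above every WT mouse. The log2 fold change was 0.50 with a standard error of 0.23 (edgeR, unadjusted p = 0.0378, adjusted p = 0.0775). Scaling by library size alone gave 0.58 (edgeR, adjusted p = 0.0445), so that the call depended on the scaling.

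The microRNAs encoded within these genes were not measured here, but a few mature sequences from RefSeq (GRCm38.p6) show what the host transcripts carry. By the GENCODE M21 gene spans, Meg3 spans 1 annotated hairpin, Rian 3 and Mirg 14. GENCODE starts Mirg at chr12:109729764, but RefSeq starts it at chr12:109734981. By the RefSeq start, mmu-miR-134-5p (chr12:109734145-109734166) and other microRNAs upstream of that start lie outside Mirg. In the following lines the seed, bases 2 to 8, is in capitals, and the 4 seeds differ from each other.
mmu-miR-770-5p in Meg3: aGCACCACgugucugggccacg
mmu-miR-370-3p in Rian: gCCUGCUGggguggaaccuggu
mmu-miR-134-5p in Mirg: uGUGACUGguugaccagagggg
mmu-miR-410-3p in Mirg: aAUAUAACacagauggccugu

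Malat1, Meg3, Miat and Snhg11 did not pass the test, and their intervals show which sizes remain possible. Malat1 had 748, 2258 and 5892 normalized counts in the lowest, median and highest WT mouse and 1181, 2190 and 5128 in rNLS8 mice, which differed by -0.09 on the log2 scale (95% interval -0.67 to 0.48, edgeR, adjusted p = 0.813). For Meg3, a maternally expressed RNA that is abundant in neurons, these levels were 2226, 14030 and 19388 in WT and 7545, 13357 and 24690 in rNLS8 mice, and the difference was 0.17 (-0.37 to 0.71, adjusted p = 0.636). Its groups overlapped, with 3 of 10 rNLS8 mice above every WT mouse, and a further copy of Meg3 held almost the same counts. Miat had 443, 2516 and 3589 normalized counts in WT and 1532, 2036 and 4486 in rNLS8 mice (log2 fold change -0.03, -0.56 to 0.49, adjusted p = 0.929). Snhg11 had 852, 6451 and 8714 in WT and 3827, 5541 and 10859 in rNLS8 mice (0.12, -0.45 to 0.69, adjusted p = 0.755), and again 3 of 10 rNLS8 mice lay above every WT mouse. A p-value that misses the threshold does not show equal levels, and the intervals give the changes that these data leave possible.

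Most of the lncRNAs varied strongly between mice of the same group. Within genotype and cohort, the SD on the log2 scale was 0.81 for Snhg11, 0.78 for Malat1, 0.77 for Meg3, 0.74 for Miat, 0.71 for Neat1 and 0.62 for Mirg, against a median of 0.147 over the 14580 genes with a mean of at least 50 counts. Rian was steadier, with an SD of 0.22. T61334, a WT mouse of cohort A, was the lowest of all 21 mice for all 7 lncRNAs, and its library held 0.0342% of its counts in them, where T60303, an rNLS8 mouse of cohort A, held 0.282%. T60303 was the highest mouse for Neat1, Meg3, Miat, Rian and Snhg11.

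**Figure D2:**
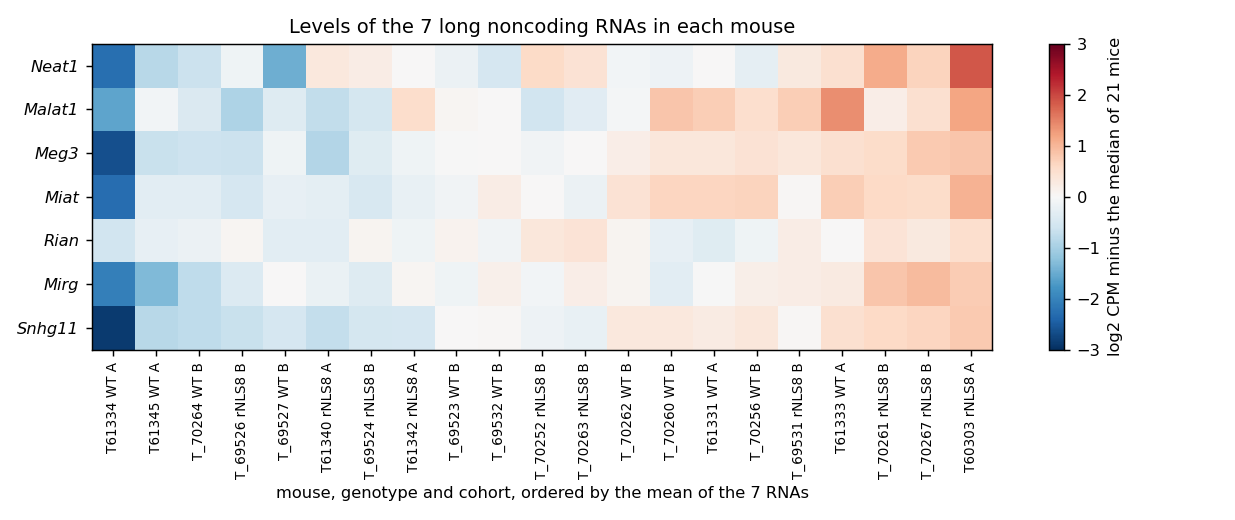
Level of each lncRNA in each mouse as log2 CPM minus the median of 21 mice (colour), with mice ordered by the mean of the 7 RNAs. T61334 is lowest in every line of the map and T60303 stands at the other end, and WT and rNLS8 mice are mixed along the order.

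Without both T61334 and T60303 (an alternative chosen after the data were seen), Neat1 (0.73, edgeR, adjusted p = 0.00318) and Rian (0.27, adjusted p = 0.00563) still passed with smaller values. Mirg had 0.31, Malat1 -0.32 and Miat -0.30, and the values of Meg3 and Snhg11 turned to -0.08 and -0.14, and none of these 5 passed. Leaving out each mouse in turn gave log2 fold changes between 0.80 and 1.16 for Neat1 and between 0.29 and 0.41 for Rian, and both passed in 21 of 21 fits. The value of 0.80 came from leaving out T60303.

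The cohorts gave the same direction for the lncRNAs that passed. In cohort B alone, where 39.1% of genes passed, Neat1 rose by 0.91 (edgeR, adjusted p = 0.000750) and Rian by 0.37 (adjusted p = 0.000505). The highest WT mouse of cohort B had 1262 normalized counts of Neat1 and the lowest rNLS8 mouse 1234. In cohort A alone, with 4 against 3 mice and 11.8% of genes called, Neat1 had a log2 fold change of 1.33 (adjusted p = 0.145) and Rian of 0.37 (adjusted p = 0.256), and none of the 7 passed. Of the rNLS8 mice of cohort A, only T60303 lay above every WT mouse of that cohort (Neat1 4917, Rian 6420). T61340 and T61342 had 1664 and 1342 normalized counts of Neat1, against 277 to 1882 in WT. For Rian they had 3609 and 4113, against 3006 to 4509. Without T60303, the effect in cohort B minus that in cohort A was 0.42 for Neat1 and 0.32 for Rian. The interaction of genotype and cohort passed for none of the 7 (edgeR, smallest adjusted p 0.917) and for 0% of all genes, with 1030 genes at an unadjusted p under 0.05. DESeq2 called 1 gene and had 995 at that level.

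**Figure D3:**
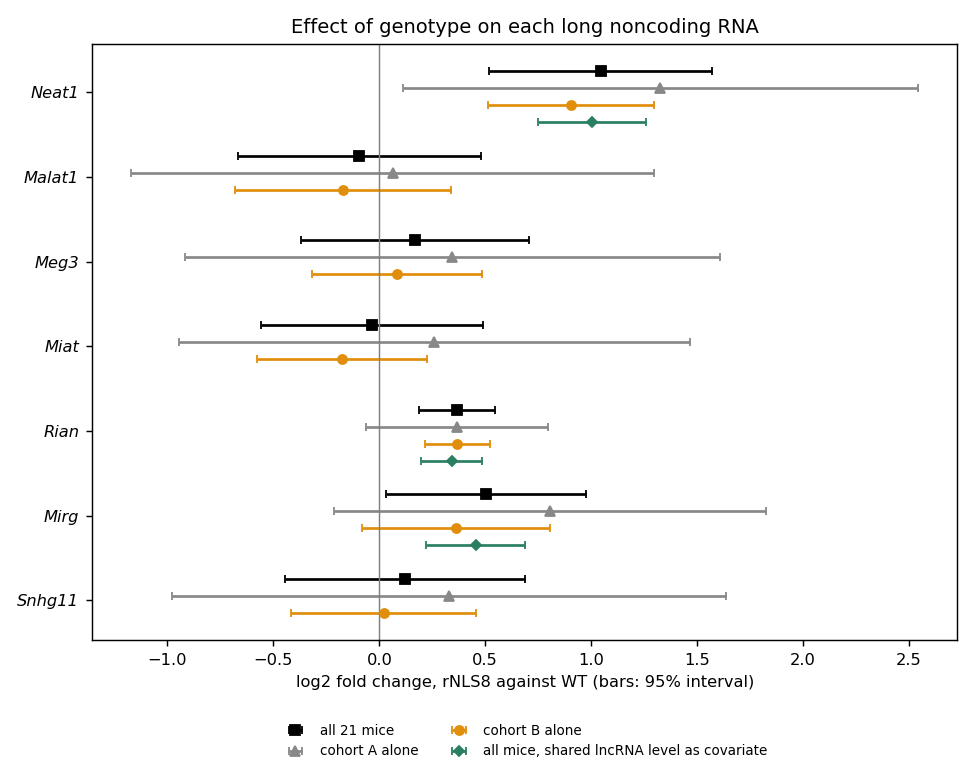
Log2 fold change of rNLS8 against WT mice for each lncRNA with its 95% interval, from all 21 mice, from each cohort alone, and with the shared level of 4 lncRNAs as an added covariate. The interval of Neat1 lies above 0 in all 4 fits, from 0.52 to 1.57 in all mice, and those of Malat1, Meg3, Miat and Snhg11 include 0. The intervals are not adjusted for the number of genes, and Neat1 did not pass in cohort A alone (edgeR, adjusted p = 0.145). The fits share mice.

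The lncRNAs rose and fell together from mouse to mouse. After the mean of each genotype and cohort was removed, Pearson's r over 21 mice was between 0.61 (Malat1 with Rian) and 0.99 (Miat with Snhg11), with a median of 0.88 over the 21 pairs and a median Spearman's rho of 0.86. All 21 pairs passed a two-sided permutation test within genotype and cohort (100000 permutations, largest Benjamini-Hochberg adjusted p = 0.0238). Without the 2 mice farthest from the median, r was between 0.47 and 0.98. Within cohort B it was between 0.21 and 0.96, with a median of 0.75. The pairs share libraries and their depth, and Rian took part least.

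Because Malat1, Meg3, Miat and Snhg11 varied together without a difference between genotypes that passed, their mean log2 CPM was added to the model as a shared level, again after the data were seen. With this covariate Neat1 had a log2 fold change of 1.003 and its standard error fell from 0.25 to 0.12 (edgeR, adjusted p = 4.72e-07). Rian had 0.34 (adjusted p = 0.000271), and Mirg passed with 0.46 (adjusted p = 0.00191). Of all genes, 47.4% passed in this model. The covariate consists of RNAs measured in the same libraries, so these values describe Neat1, Rian and Mirg relative to the other 4.

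Differences within each mouse, without a model, separated the genotypes for Neat1 more than for Mirg. Neat1 minus Malat1 in log2 CPM was -1.83, -1.47 and -0.79 in the lowest, median and highest WT mouse and -1.27, 0.0071 and 0.40 in rNLS8 mice. In 8 of 10 rNLS8 mice the difference was larger than in every WT mouse. Relative to Meg3, 7 of 10 rNLS8 mice lay above every WT mouse. Relative to the shared level, 7 of 10 did so for Neat1, 4 of 10 for Mirg and 0 of 10 for Rian, whose difference was -0.85 to 1.75 in WT and -0.47 to 0.73 in rNLS8 mice. Rian had an SD of 0.22 within groups, and the RNAs of the shared level 0.74 to 0.81. Its difference therefore mostly follows the subtracted level and cannot be set against that of Neat1. The value of 1.75 was that of T61334, where the shared level was lowest (5.39). In normalized counts of Rian alone, 6 of 10 rNLS8 mice lay above every WT mouse.

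**Figure D4:**
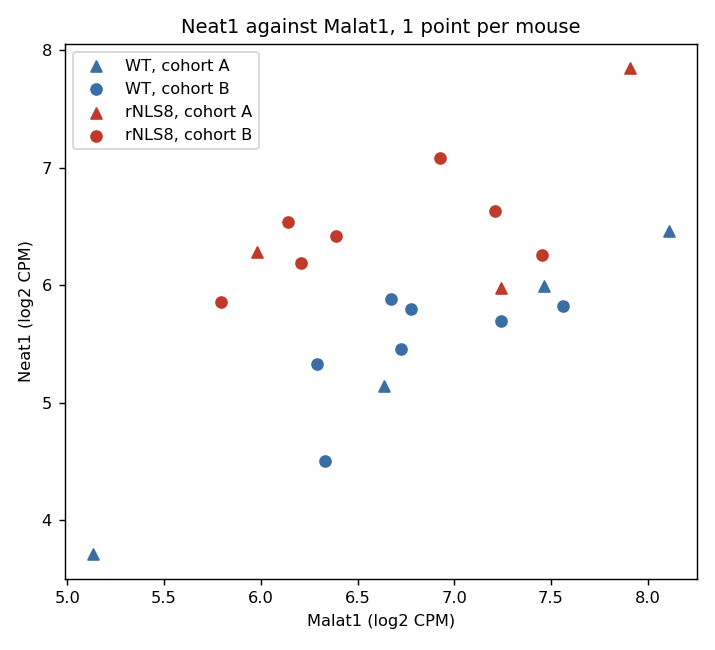
Neat1 against Malat1 in log2 CPM, 1 point per mouse, with colours for genotype and shapes for cohort. At a given level of Malat1 the rNLS8 mice mostly lie above the WT mice, and the median difference between the RNAs is 0.0071 in rNLS8 and -1.47 in WT mice.

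Per length, Meg3 and Snhg11 were the most abundant. The median level in WT mice was 35.4 CPM per kb of annotated exon for Meg3, 34.6 for Snhg11, 14.8 for Malat1, 12.4 for Miat, 9.92 for Rian, 2.45 for Neat1 and 0.564 for Mirg. The ranges of neighbours in this order overlapped, except that every WT mouse had more Rian than the highest Neat1 level. In rNLS8 mice the medians were 35.8 for Meg3, 31.5 for Snhg11, 15.1 for Malat1, 14.3 for Rian, 10.6 for Miat, 4.02 for Neat1 and 0.662 for Mirg, and here the ranges of Neat1 and Mirg did not overlap. These levels leave out the further copies, which held 111.4% as many counts as Rian and 101.2% as many as Meg3 over all mice, so the place of Rian in the order depends on how reads were shared between copies. Over the 3004 bases of the short Neat1 isoform alone, Neat1 had 17.0 in WT and 27.8 in rNLS8 mice. The libraries were made from isolated mRNA, and the long Neat1 isoform and Malat1 lack a usual poly(A) tail. What this capture did to their levels was not tested, and the counts do not separate the Neat1 isoforms.

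Neat1 (chr19:5824708-5845478) and Malat1 (chr19:5795690-5802672) are neighbours on the minus strand of chromosome 19, within 11 other tested genes of a list of 12. Of these, 5 rose, 1 fell and 5 did not pass, with a median log2 fold change of 0.16, where 23.0% of all genes tested rose and 21.7% fell. These shares are the background of each list that follows. Without T61334 and T60303, 3 of the neighbours rose and 1 fell, and 7761 genes were called in all. Dpf2, a subunit of BAF chromatin remodelling complexes, rose by 0.39, Pola2, a subunit of DNA polymerase alpha, by 0.36 and Frmd8 by 0.17, and Ehbp1l1 fell by 0.17. Those that did not pass were Slc25a45 (0.27), Map3k11 (0.11), Cdc42ep2 (-0.04), Tigd3 (-0.06) and Ltbp3 (-0.12). Around Meg3 (chr12:109541001-109571726), Rian (chr12:109603940-109661716) and Mirg (chr12:109729764-109749460), 8 of 9 listed genes were tested, of which 2 rose, 1 fell and 5 did not pass. Wars, a tRNA synthetase, rose by 0.32 and Wdr25 by 0.17, and Ppp2r5c, a regulatory subunit of protein phosphatase 2A, fell by 0.30. The paternally expressed Rtl1, with a log2 fold change of -0.0043, did not pass, nor did Dlk1 (0.26), Begain (0.12), Slc25a29 (-0.04) and Dio3 (-0.44).

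Of 24 paraspeckle proteins 3 rose, 5 fell and 16 did not pass, with a median of -0.04. The core proteins Nono (0.02) and Sfpq (-0.09) did not pass, and Pspc1, the third protein of their family, fell by 0.18. Nudt21, a subunit of cleavage factor I, and Taf15 each fell by 0.20, and Hnrnpa1 rose by 0.19. Tardbp, which encodes TDP-43 and is a member of this list, had 2253, 2650 and 2827 normalized counts in the lowest, median and highest WT mouse and 2363, 4500 and 5053 in rNLS8 mice, with 9 of 10 above every WT mouse. The library labelled TG from T61340, at 2363, lay within the WT range. The rNLS8 mice of cohort A had 2363 to 3091 against 2253 to 2650 in its WT mice, and those of cohort B 4405 to 5053 against 2507 to 2827. Without T61340, Neat1 had a log2 fold change of 1.10 (edgeR, adjusted p = 0.00139) and Rian of 0.41 (adjusted p = 0.000229). Reads of the human transgene can align to the mouse gene, so this row does not measure the mouse gene alone.

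Of 20 nuclear speckle components 4 rose, 0 fell and 16 did not pass. Srsf5, a splicing factor, rose by 1.06, Pnn by 0.33, Srrm1 by 0.24 and Tra2b by 0.12. Between mice of the same genotype and cohort, the median r of this list with the mean of the 7 was 0.84, against -0.065 over genes with a mean of at least 50 counts, as a description with no test. Its members ranged from -0.69 (Sart1) to 0.98, with U2af2 at -0.68, Tra2b at 0.12 and Srsf3 at 0.16. The splicing kinases Clk1 (0.98) and Clk4 (0.94) and the speckle protein Pnisr (0.95) were among the highest in this list. Neat1 was most like Pnisr (r = 0.95) and Ssh3 (0.94), Malat1 like Zcchc7 (0.95) and Snhg14 (0.95), and Meg3 like Snhg11 (0.98) and Trank1 (0.98). Miat was most like Snhg11 (0.99) and the microRNA host Mir124a-1hg (0.97), Snhg11 like Miat (0.99) and Trank1 (0.98), Mirg like Pxdn (0.95) and Zfp276 (0.94), and Rian like Snap23 (0.86). Of the 14580 genes, 394 (2.70%) had an r over 0.8 with the mean of the 7, and 137 (0.940%) an r under -0.8, with Fto (-0.94) and the chaperone Hsp90aa1 (-0.93) the lowest.

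Other hosts of snoRNAs were compared with Snhg11. Of 18 tested members of a list of 19, 10 rose, 1 fell and 7 did not pass, beside 23.0% and 21.7% of all genes. The median log2 fold change was 0.62, and these counts were the same without T61334 and T60303. Snhg1 rose by 2.13, Snhg5 by 1.70, Snhg16 by 1.70 and Zfas1 by 1.52, whereas Snhg6 fell by 0.33. Snhg11, at 0.12, lay among the hosts that did not pass, such as Snhg14 (0.09) and Dancr (0.07), and the difference between genes was not tested. Of 25 tested lncRNAs of brain outside these lists, 2 rose, 8 fell and 15 did not pass, with a median of -0.09. Rmst, a neurogenic lncRNA, rose by 0.94 and the imprinted Peg13 by 0.74, and Oip5os1 (Cyrano) fell by 0.95 and Norad by 0.51. Of 11 proteins linked to Miat or Malat1, 3 rose and 3 fell, led by Ezh2, the polycomb methyltransferase (0.43), Celf3 (0.39), Hnrnpc (-0.22) and Srsf4 (-0.17). Suz12 (0.12), Jarid2 (0.04), Sf1 (-0.02), Srsf1 (-0.10) and Qk (-0.18) did not pass.

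**Figure D5:**
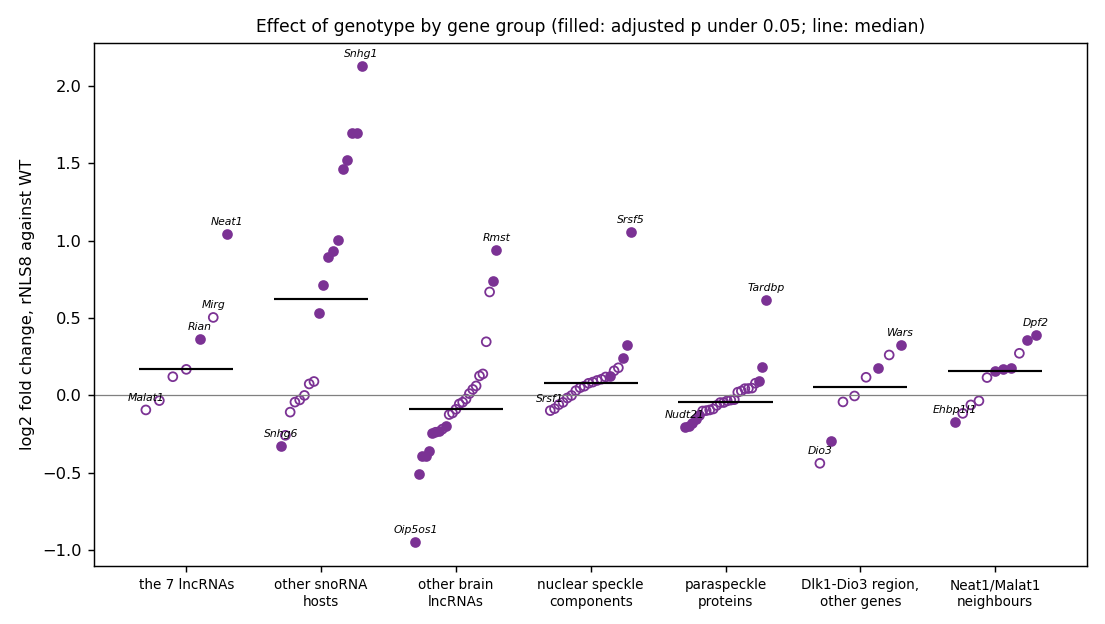
Log2 fold change of rNLS8 against WT mice for the 7 lncRNAs and 6 gene groups, 1 point per gene, filled where the adjusted p is under 0.05, with a line at each median. The other snoRNA hosts reach 2.13 with a median of 0.62. The nuclear speckle components and paraspeckle proteins lie between -0.20 (Nudt21) and 0.33 (Pnn) apart from Srsf5 (1.06) and Tardbp (0.62).

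Markers of neurons and of each glial type were detected in every mouse, as were markers of choroid plexus, a tissue of the ventricles that is not part of the neocortex. In bulk tissue, fewer cells of a type and less RNA per cell cannot be told apart. The summed level of 10 neuron markers was 7108 to 8681 CPM in WT and 5281 to 6565 in rNLS8 mice, without overlap, and 7 of the 10 fell, with 0 rising. In T61334, the mouse lowest in the lncRNAs, this sum was 8218, the WT median, and in T60303 it was 5281, the lowest of all mice. Across the 21 mice, within genotype and cohort, the sum had an r of -0.69 with the mean of the 7 lncRNAs, as a description. Of the markers of microglia 5 rose and 1 fell of 8, with sums of 368 to 427 CPM in WT and 388 to 572 in rNLS8 mice, the highest in T60303. Astrocyte markers had 1 rise (Gfap, by 1.03) and 5 falls of 8, and sums of 5071 to 6357 and 4512 to 5674. Oligodendrocyte markers had none of 8 called, and sums of 4537 to 7657 and 4354 to 7774. Of 5 precursor markers 1 rose, of 5 endothelial markers 1 rose and 1 fell, and of 4 choroid plexus markers none passed. Their sum was 19.0 to 2190 CPM in WT and 27.7 to 1119 in rNLS8 mice, with the highest value in T61334. The part of these markers in the results on the lncRNAs was not tested.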

How the data were processed

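The labels gave the genotype, cohort and number of each mouse. The 7 lncRNAs and all gene lists were chosen with earlier results of these data known. Reads were aligned by the authors to GRCm38, and raw counts for each gene symbol were deposited. The submitters' processing notes name HISAT, HISAT2, Bowtie, Bowtie2 and RSEM without a role or version, and which of them made these counts is not given in the sources used here. Paired-end mRNA libraries without molecular identifiers were used, and a limit of 3 counts therefore covers only the counting error. Further copies of symbols (2553 entries, 4.11% of counts) were kept as deposited.

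Counts were analysed in R 4.3.3 with edgeR 4.0.16: filterByExpr (minimum count 10, minimum total 15), TMM, and the two-sided quasi-likelihood test for genotype with cohort as covariate, with Benjamini-Hochberg adjustment over 18248 genes at 0.05. Standard errors follow from the fold change and the F statistic. Normalized counts are counts divided by effective library size times its mean, and log2 CPM used a prior count of 2. Correlations used Python 3.11.15 with numpy 2.4.6. Sequences were read from GENCODE M21 transcripts and RefSeq microRNAs. On simulated counts for 18132 genes, the genotype test found 99 of 100 genes changed by 1 and 91 of 100 changed by 0.5 on the log2 scale, with 11 false calls. The interaction test, on 18130 genes, found 81 and 40 of 100, with 3 false calls. The changed genes were drawn at random from genes with a mean of at least 50 counts, whose median SD within groups was 0.147. The lncRNAs apart from Rian had SDs of 0.62 to 0.81. The shares found were not measured for genes that vary this much and do not give the power for these lncRNAs.

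Named were all 7 lncRNAs, the 4 genes per list with the largest absolute log2 fold change past the threshold, genes that did not pass where 5 or fewer, the 2 genes most like each lncRNA, and Tardbp. Some genes that this rule names are not reported here. Other genes were named after their values were seen, among them Gfap, Pspc1, Clk1, Clk4, Pnisr, Nono, Sfpq, Ehbp1l1, Fto and Hsp90aa1. Alternatives were DESeq2 1.42.0, other scalings, filters, copies left out or summed, each cohort alone, Xist as covariate and each mouse left out.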

Additional observations from a re-analysis of the deposited data

Results flagged for a closer look

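Among 28 sets of mice of 1 genotype and cohort or genotype that were screened for a mouse far from the rest, 1 stood out, where chance would give about 1.4. It was Neat1 in the 7 WT mice of cohort B: T_69527 had 4.51 log2 CPM, the next lowest mouse 5.33, and the gap was 0.595 of the whole range.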

How the results depend on the processing

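Neat1 and Rian kept their direction in every alternative and passed in all but cohort A alone (1.33 and 0.37), where 0 of the 7 were called higher and 2195 genes were called in all. Mirg passed with library size only (0.58), with Xist as covariate (0.58) and with the shared lncRNA level (0.46). Values that did not pass changed sign in places: Miat with library size only (0.0454), Xist as covariate (0.0381) and cohort A alone (0.26), Malat1 in cohort A alone (0.0636), and Meg3 (-0.0765) and Snhg11 (-0.14) without T61334 and T60303. The cause was not tested. Leaving out each mouse gave 0.80 to 1.16 for Neat1, 0.29 to 0.41 for Rian, 0.39 to 0.60 for Mirg (past the threshold in 3 of 21 fits), -0.24 to 0.0509 for Malat1, 0.0018 to 0.26 for Meg3, -0.22 to 0.0446 for Miat and -0.0650 to 0.23 for Snhg11. The effect in cohort B minus that in cohort A ranged from -0.82 to 0.42 for Neat1, -0.71 to 0.29 for Malat1, -0.57 to 0.33 for Meg3, -0.71 to 0.17 for Miat, -0.13 to 0.32 for Rian, -0.82 to -0.07 for Mirg and -0.66 to 0.34 for Snhg11. No paired analysis was possible because the mice share no replicate numbers. Depth limits Mirg most, with 20 counts in T61334.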
